A study of Sus scrofa with 63 samples.

Results

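SULT1E1 and CYP2C91 are 2 of the 6765 genes named on the array by a single symbol, and each was measured by 1 of the 23999 probe sets tested. The pair was chosen from measured values, with earlier results on exposed against control skin in view. SULT1E1 had the largest fall of all 6765 genes at 24 to 72 h, the 4th largest at 1 to 4 h and the 10th largest at 168 to 514 h. CYP2C91 had the 14th and the 12th largest rise in those windows. Differences between exposed and control skin of these genes are therefore given below as a description, without a test.

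SULT1E1 is estrogen sulfotransferase. It moves a sulfate group from the donor PAPS, which the PAPSS enzymes make, onto estrogens and other small phenols, and the sulfated estrogen no longer binds its receptor. Enzymes of the CYP2C subfamily are heme monooxygenases of the endoplasmic reticulum that take electrons from the reductase POR and oxidise drugs, steroids and arachidonic acid. In the RefSeq annotation of the pig genome (Sscrofa11.1) CYP2C91 is typed as a transcribed pseudogene and overlaps CYP2C42, and 7 CYP2C genes, itself included, lie on that chromosome. Near-identical copies can share probes, so the CYP2C91 signal is that of the probe set assigned to this gene and may hold transcripts of close copies. The gene IDs are 397052 for SULT1E1 and 100516879 for CYP2C91.

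Skin of female Yorkshire crossbred pigs was profiled after sulfur mustard, a blistering agent that alkylates DNA. Exposed sites on the depilated ventral abdomen received 400 µL of undiluted agent for 8 min under a template that gave lesions of 3 cm. Control sites were unexposed skin of the same 3 animals, and sham skin came from 1 further animal at each time that was prepared but not exposed. Punches 8 mm wide were collected at 1, 2, 4, 24, 48, 72, 168, 336 and 514 h, with 3 exposed, 3 control and 1 sham array per time (27, 27 and 9 arrays), each made from 10 µg of total RNA. The last time is 514 h in the sample labels and 21 d in the design text. The age of the animals is not given in the sources used here. Exposed and control arrays of a time come from the same animals, which the fit does not use, so p-values measure the spread between arrays.

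A punch holds epidermis, dermis and underlying tissue together. Fewer cells of a type and less RNA per cell cannot be told apart in such samples. The mean log2 signal of 7 measured genes of differentiated keratinocytes, KRT1 and KRT10 among them, lay between 10.85 and 12.74 in control arrays, so epidermis was present in all of them. The mean of 20 skeletal muscle genes ranged from 6.93 to 13.60 over the 63 arrays, and over the 9 control arrays at 168 to 514 h from 7.06 to 13.35, so muscle content differed between biopsies. The values below are log2 signals, on which a step of 1 is 2-fold, and array medians lay between 7.75 and 7.86. The 9 times are also summarised in 3 windows, 1 to 4 h, 24 to 72 h and 168 to 514 h, with 9 exposed and 9 control arrays each.

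In control skin SULT1E1 had a mean log2 signal of 9.22 ± 0.67 (SD, n = 27), and in lesions it was lower from 24 h to 336 h and back among the control values at 514 h. The lowest group mean was that of the 168 h lesions, 5.28 ± 0.22 (SD, n = 3), 24.0-fold below the control sites of that time. CYP2C91 ran the other way. Its mean in control skin was 6.94 ± 0.77 (SD, n = 27), and in lesions it was higher at every time from 24 h to 514 h, by 10.8-fold at 168 h. At 1, 2 and 4 h the mean of both genes was below that of control skin.

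**Figure D1:**
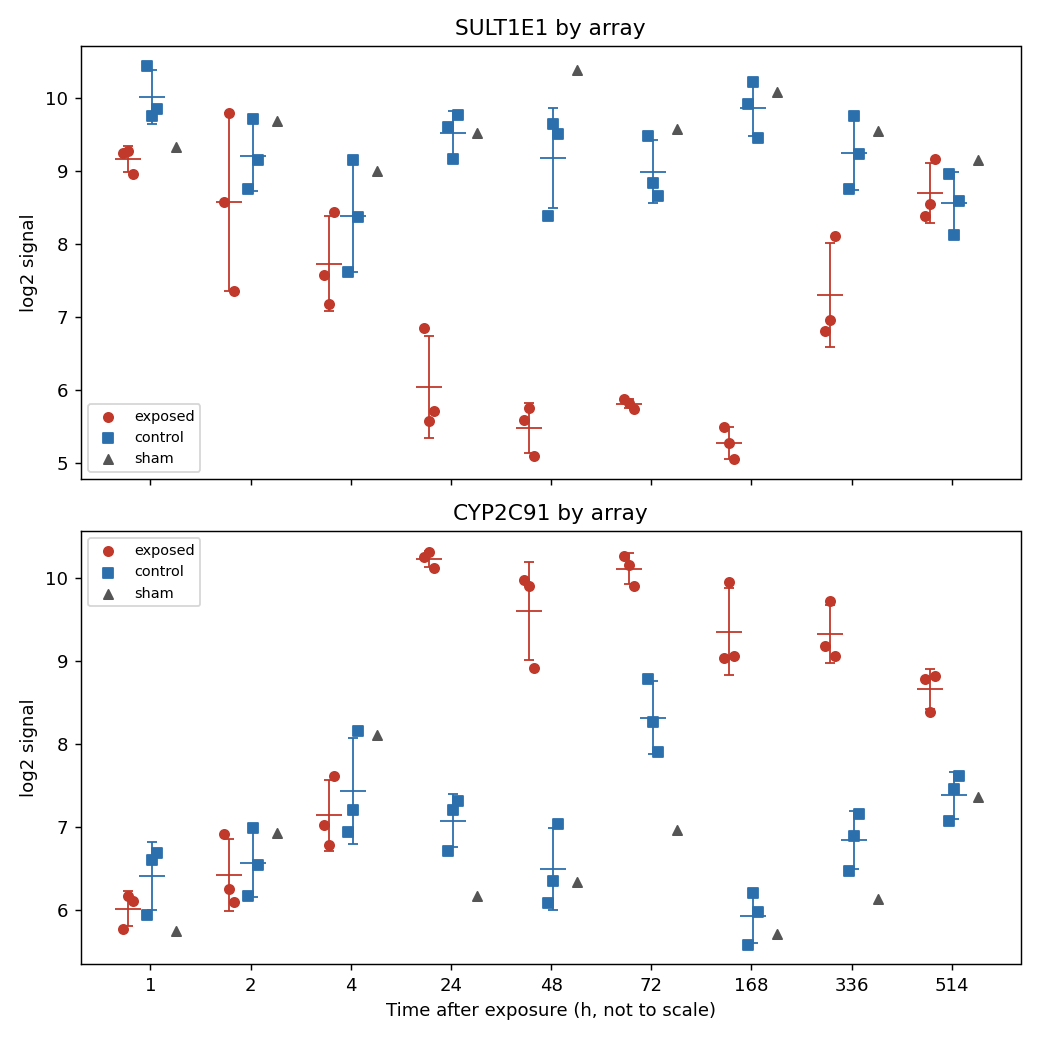
The log2 signal of SULT1E1 (upper panel) and CYP2C91 (lower panel) on each of the 63 arrays is plotted against time, with circles for exposed, squares for control and triangles for sham arrays; horizontal bars with whiskers are the mean and SD of 3 arrays. The exposed circles of SULT1E1 lie between 5.06 and 6.85 from 24 to 168 h, and those of CYP2C91 lie between 8.39 and 10.32 from 24 to 514 h.

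At 1 h the 3 exposed arrays of SULT1E1 read 9.25, 9.28 and 8.97, the 3 control arrays 10.44, 9.75 and 9.86, and the sham array 9.33. All exposed values were below all control values at this first time, but the sham array lay close to the exposed ones. Exposed and control arrays did not overlap, in either direction, for 13.3% of all probe sets at 1 h. At 2 h the exposed arrays read 8.58, 9.79 and 7.36 against 8.75, 9.71 and 9.15 in control skin and 9.69 in sham skin. The exposed arrays spanned more than the control arrays on both sides. At 4 h the exposed values were 7.58, 7.17 and 8.45, the control values 7.62, 9.15 and 8.37, and the sham value 9.01. The groups overlapped at 2 and 4 h, and the first control array at 4 h was itself the lowest of the 27.

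From 24 h the separation was complete. At 24 h the exposed arrays read 6.85, 5.58 and 5.72, the control arrays 9.61, 9.17 and 9.77, and the sham array 9.52. At 48 h the exposed arrays read 5.60, 5.76 and 5.10, the control arrays 8.39, 9.65 and 9.50, and the sham array 10.39. At 72 h they were 5.87, 5.83 and 5.75 in exposed, 9.48, 8.84 and 8.65 in control and 9.58 in sham skin. Every exposed array of these days lay below every control and sham array of its time. Exposed and control arrays were apart in this way, in either direction, for 40.5% of all probe sets at 24 h, 24.7% at 48 h and 26.5% at 72 h. On their own arrays the 9 exposed values stood above a median of 15.3% of the probe sets, against 79.1% for the control values. RMA, the method that made these signals, compresses differences near the lower end. Folds of a probe set this dim may therefore be lower than in the RNA.

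At 168 h the exposed arrays were lowest of all, at 5.49, 5.28 and 5.06, with 9.91, 10.22 and 9.45 in control skin and 10.08 in sham skin. At 336 h they read 6.81, 6.97 and 8.12 against 8.75, 9.75 and 9.23 in control skin and 9.55 in sham skin. The groups were still apart at 336 h, with the third lesion nearest to the controls. Such separation held for 32.4% of all probe sets at 168 h and 25.8% at 336 h. At 514 h the exposed values 8.38, 8.55 and 9.17 overlapped the control values 8.96, 8.13 and 8.60, with 9.14 in the sham array. Averaged over windows, SULT1E1 differed between exposed and control skin by -0.71 at 1 to 4 h, -3.44 at 24 to 72 h and -2.13 at 168 to 514 h (log2, SE 0.25 each). The middle window corresponds to 10.9-fold lower and the last to 4.38-fold lower. The last value averages unlike times, with differences of -4.58 at 168 h, -1.95 at 336 h and 0.14 at 514 h (SE 0.44 each).

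In the order of the exposed group means of SULT1E1, the times 168, 48, 72 and 24 h formed a low block from 5.28 to 6.05 in which neighbours differed by less than the larger of their SDs. A step of 1.25 led to 336 h (7.30 ± 0.71, SD, n = 3), larger than that spread, though the arrays of 24 and 336 h overlapped. From 336 h through 4 h (7.73 ± 0.65) and 2 h (8.58 ± 1.22) to 514 h (8.70 ± 0.41), neighbours differed by less than the larger SD. The 1 h mean was highest at 9.17 ± 0.17 (SD, n = 3 each). It stood 0.47 above that of 514 h, more than the larger SD of 0.41, though the arrays overlapped. The 9 control means ran from 8.38 at 4 h to 10.02 at 1 h, and no neighbouring means in that order differed beyond their spread. The control arrays at 1 h (9.75 to 10.44) and at 4 h (7.62 to 9.15), the ends of that order, did not overlap.

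Pathology scores in the labels separate lesions whose new epidermis had closed from open ones, at 168 to 514 h. The 5 open lesions, 3 at 168 h and 2 at 336 h, had SULT1E1 signals from 5.06 to 6.97 with a median of 5.50. The 4 closed lesions, the third at 336 h and all 3 at 514 h, ranged from 8.12 to 9.17 with a median of 8.47. The groups did not overlap, which held for 8.23% of all probe sets. CYP2C91 ranged from 9.05 to 9.96 in the open and from 8.39 to 9.06 in the closed lesions, and these groups overlapped. Closure followed time after exposure, so the contributions of these cannot be told apart.

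CYP2C91 was similar in exposed and control skin over the first hours. At 1 h its exposed arrays read 5.77, 6.17 and 6.11, its control arrays 5.94, 6.61 and 6.69, and the sham array 5.74. At 2 h the exposed values were 6.92, 6.25 and 6.09, the control values 6.17, 6.99 and 6.54, and the sham value 6.93. At 4 h the exposed arrays read 7.02, 6.79 and 7.62 against 6.94, 7.21 and 8.16 in control skin and 8.11 in sham skin. The groups overlapped at all 3 times, and exposed, control and sham arrays alike were higher at 4 h than at 1 h. Arrays of 1 h and 4 h were processed in different periods, so time and processing cannot be told apart here.

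From 24 h the exposed arrays of CYP2C91 lay above all control arrays of their time. At 24 h they read 10.26, 10.32 and 10.13, with 6.72, 7.21 and 7.31 in control skin and 6.17 in sham skin. At 48 h they read 9.98, 9.91 and 8.92, with 6.08, 6.36 and 7.04 in control and 6.34 in sham skin. At 72 h the exposed values were 10.27, 10.17 and 9.91, the control values 8.79, 8.27 and 7.91, and the sham value 6.96. The exposed level at 72 h was that of 24 h within its spread. The smaller difference at 72 h (1.79, SE 0.31, against 3.16 at 24 h) came with a control mean higher than at any other time.

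At 168 h CYP2C91 read 9.05, 9.96 and 9.06 in exposed, 5.59, 6.21 and 5.98 in control and 5.71 in sham skin. At 336 h it read 9.19, 9.73 and 9.06 in exposed, 6.47, 6.90 and 7.16 in control and 6.13 in sham skin. At 514 h the exposed values were 8.79, 8.39 and 8.82, the control values 7.07, 7.46 and 7.62, and the sham value 7.36. Lesions thus stayed above control skin to the last time, at which SULT1E1 no longer differed beyond its spread. The differences were 3.43, 2.48 and 1.28 (SE 0.31 each), or 10.8-, 5.58- and 2.43-fold. Over windows they were -0.28, 2.69 and 2.40 (SE 0.18 each), or 6.44- and 5.27-fold higher at 24 to 72 h and 168 to 514 h. Exposed arrays stood apart from control arrays at each time from 24 to 514 h, and at 514 h this held for 29.4% of all probe sets in either direction.

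**Figure D2:**
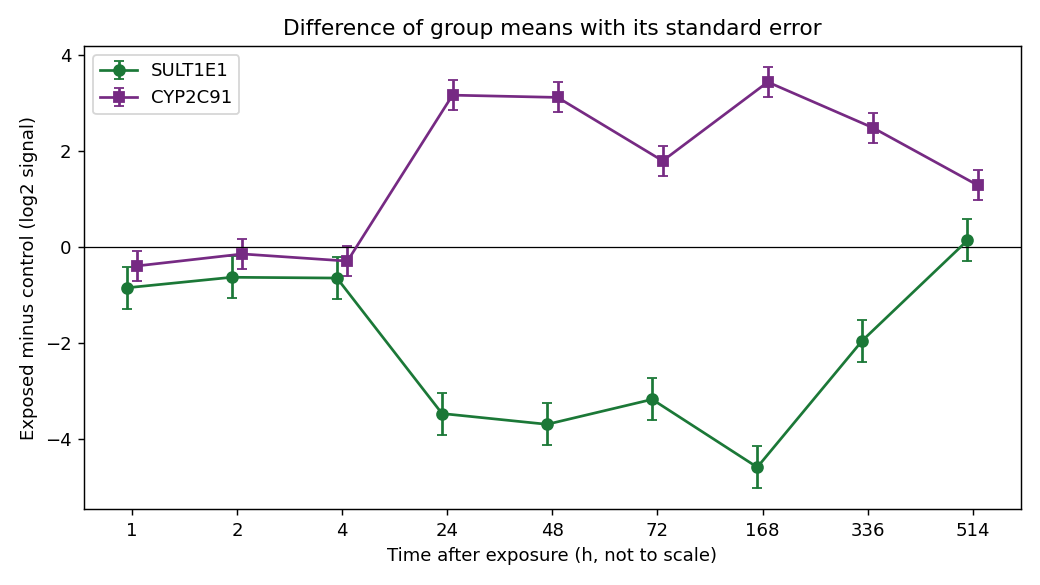
The difference between the mean log2 signal of 3 exposed and 3 control arrays is plotted for each time, with its standard error from the fit over all arrays, as circles for SULT1E1 and squares for CYP2C91. Through 4 h SULT1E1 lies between -0.85 and -0.63 and CYP2C91 between -0.39 and -0.15; SULT1E1 is lowest at 168 h (-4.58) and returns to 0.14 at 514 h, while CYP2C91 is highest at 168 h (3.43) and is 1.28 at 514 h.

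Read against all probe sets, the changes fell in windows in which many genes moved. In limma with Benjamini-Hochberg adjustment over 23999 probe sets, 5.48% passed an adjusted p of 0.05 at 1 to 4 h, 35.1% at 24 to 72 h and 21.9% at 168 to 514 h. All 9 exposed arrays lay beyond all 9 control arrays for 3.73% of probe sets at 24 to 72 h, and both SULT1E1 and CYP2C91 did so. At 168 to 514 h this held for 1.31%, and for CYP2C91 but not for SULT1E1. Nothing is drawn from these counts, since the pair was chosen on the same contrast.

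The exposed means of CYP2C91 ordered from 1 h (6.02 ± 0.21) through 2 h (6.42 ± 0.44) to 4 h (7.14 ± 0.43), then with a step of 1.52 to 514 h (8.67 ± 0.24, SD, n = 3 each). Above it came 336 h (9.33 ± 0.35), 168 h (9.36 ± 0.53), 48 h (9.60 ± 0.59), 72 h (10.12 ± 0.19) and 24 h (10.24 ± 0.10). From 336 h upward no neighbours differed by more than the larger SD. Among control means the 168 h sites were lowest (5.92 ± 0.32) and the 72 h sites highest (8.32 ± 0.44), each further from its neighbour than the larger SD, and the other 7 times lay between 6.41 and 7.44. The arrays of these times still overlapped those of their neighbours. They read 5.59 to 6.21 at 168 h against 5.94 to 6.69 at 1 h, and 7.91 to 8.79 at 72 h against 6.94 to 8.16 at 4 h.

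Dates in the labels place the arrays in 3 processing periods. The first holds 1, 24 and 168 h, the second 2, 48 and 336 h, and the third 4, 72 and 514 h. Control levels moved with them: SULT1E1 averaged 9.80 ± 0.38, 9.21 ± 0.49 and 8.64 ± 0.56 and CYP2C91 averaged 6.47 ± 0.59, 6.64 ± 0.40 and 7.72 ± 0.62 (SD, n = 9 each). In the same control arrays the mean of the 7 keratinocyte genes was 12.46, 12.09 and 11.75, and that of 14 genes of neutrophils and macrophages was 8.20, 8.10 and 8.51. The part of these in the control levels was not tested. Each window holds 1 time of every period, so windows are balanced over periods, and each difference between exposed and control skin at 1 time lies within 1 period.

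Sham and control skin did not differ beyond the threshold for either gene. The 9 sham arrays of SULT1E1 ranged from 9.00 to 10.39 with a median of 9.55, and the 27 control arrays from 7.62 to 10.44 with a median of 9.23. Sham was higher than the control mean at 8 of 9 times, by 0.37 ± 0.21 on average (log2, SE; limma adjusted p = 0.60; exact permutation of arrays within times, two-sided p = 0.0592). For CYP2C91 the sham arrays ranged from 5.71 to 8.11 with a median of 6.34 and the control arrays from 5.59 to 8.79 with a median of 6.94. The difference was -0.33 ± 0.15 (SE; limma adjusted p = 0.505; exact permutation p = 0.0734), with sham higher at 2 of 9 times. In sham against control skin 5 probe sets, or 0.0208%, passed the threshold. With the muscle score as a covariate the SULT1E1 difference was 0.20 ± 0.21 and the CYP2C91 difference -0.38 ± 0.16 (SE). There was 1 sham animal per time, which means that animal and treatment cannot be told apart.

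Control sites of exposed animals were also compared over the time course. SULT1E1 at 168 to 514 h minus 1 to 4 h differed by 0.02 ± 0.25 (SE; limma adjusted p = 0.979), with 9 arrays in each window. CYP2C91 differed by -0.09 ± 0.18 (limma adjusted p = 0.879). Of all probe sets 1.57% passed in this contrast. Between 24 to 72 h and 168 to 514 h the control level of CYP2C91 differed by -0.58 ± 0.18 (limma adjusted p = 0.133), a contrast in which 0.229% passed. Neither gene passed the threshold in these contrasts, with p adjusted over all probe sets. The control means of SULT1E1 in the 3 windows were 9.20, 9.23 and 9.22. Those of CYP2C91 were 6.81, 7.30 and 6.72. Single times spread wider, for CYP2C91 from 5.92 at 168 h to 8.32 at 72 h. For SULT1E1 they ran from 8.38 at 4 h to 10.02 at 1 h. A lower control level of CYP2C91 at 168 to 514 h than at 24 to 72 h is therefore not excluded.

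Other members of both families were measured on the same arrays. Of 5 other CYP2C genes, CYP2C32, CYP2C33, CYP2C36, CYP2C42 and CYP2C49, measured by 8 probe sets, none passed the threshold in any window. Their differences lay between -0.12 and 0.09 and their lowest limma adjusted p was 0.13. A CYP2C32 probe set averaged 8.98 over the 63 arrays. The others averaged from 5.17 (CYP2C33) to 6.76 (CYP2C42), below the array medians of 7.75 to 7.86. In probe sets this dim a change of the RNA may go unseen. Over the 63 arrays their correlation with CYP2C91 ran from -0.16 to 0.25. The other cytosolic sulfotransferases measured were SULT1A3, which sulfates phenols and catecholamines, and SULT2A1, which sulfates hydroxysteroids. SULT1A3 rose by 0.93 ± 0.18 at 24 to 72 h (SE; limma adjusted p = 4.54e-05), and was 0.34 ± 0.18 higher at 168 to 514 h without passing (adjusted p = 0.173). Without the 24 h arrays its rise was 0.57 and the adjusted p 0.0538. SULT2A1, also dim at a mean of 6.51 over the 63 arrays, differed by 0.11 ± 0.06 and -0.07 ± 0.06 in those windows and did not pass.

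**Figure D3:**
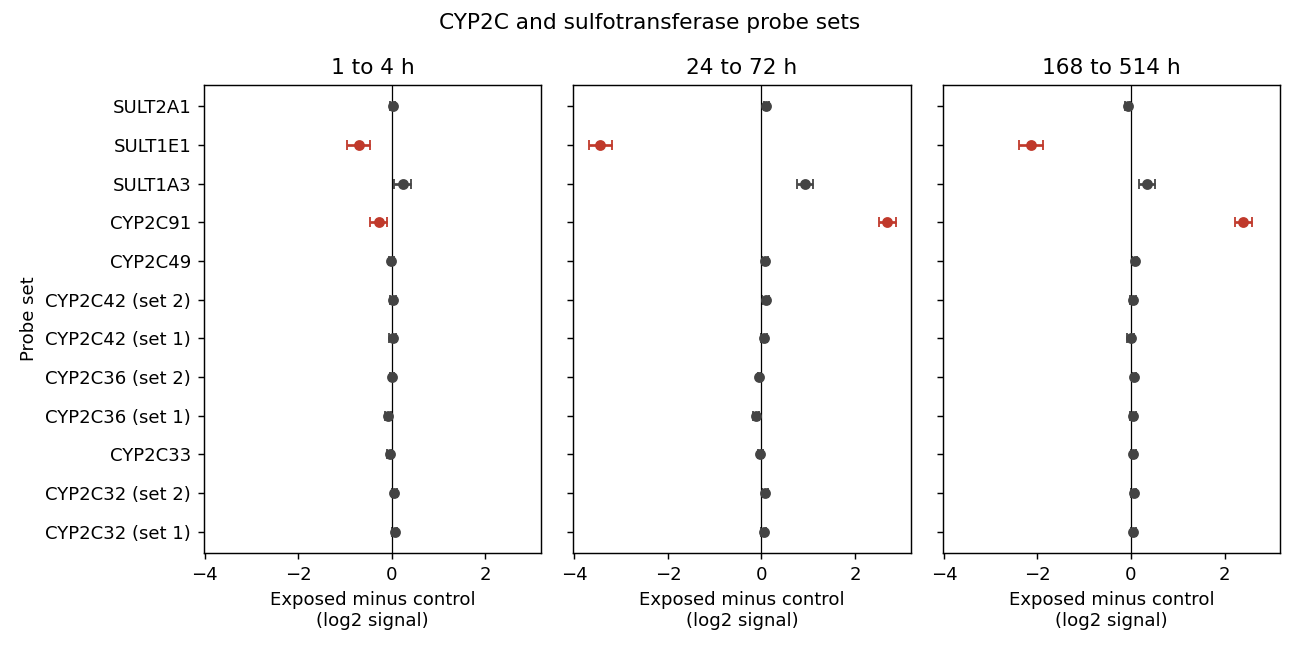
The difference between exposed and control skin (log2 signal) with its standard error is plotted for every CYP2C and cytosolic sulfotransferase probe set in the 3 windows, 1 row per probe set and SULT1E1 and CYP2C91 in red. The other CYP2C probe sets lie within 0.12 of 0 in every window, and SULT1A3 is at 0.93 at 24 to 72 h.

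The genes whose pattern over the 63 arrays was most like SULT1E1 were HOPX, CALML5, CCL28, RHBG and SERPINB7, with Pearson's r of 0.96, 0.93, 0.92, 0.92 and 0.91 among 6764 genes. HOPX encodes a homeodomain protein of differentiating epithelia, CALML5 a calmodulin-like protein of the upper epidermis, CCL28 an epithelial chemokine, RHBG an ammonium transporter and SERPINB7 an epidermal protease inhibitor. Over the 36 control and sham arrays alone their r with SULT1E1 was 0.86, 0.75, 0.50, 0.77 and 0.81. All 5 were lower in lesions at 24 to 72 h, with log2 differences from -3.17 to -1.81. The genes most like CYP2C91 were HMOX1, AIF1, IL10, SLC11A1 and NEK6, with r of 0.92, 0.90, 0.90, 0.89 and 0.89, and of 0.82, 0.80, 0.82, 0.75 and 0.55 over the 36 unexposed arrays. HMOX1 degrades heme, AIF1 is an actin-binding protein of macrophages, IL10 is an anti-inflammatory cytokine, SLC11A1 a metal transporter of phagocyte vesicles and NEK6 a mitotic kinase. SULT1E1 and CYP2C91 had an r of -0.80 with each other over all arrays and -0.43 over the 36. With the group means removed, over the 54 exposed and control arrays, this r was 0.27, of the opposite sign. In the same residuals the 5 genes most like SULT1E1 had r of 0.72 to 0.85, and those most like CYP2C91 had 0.28 for HMOX1, 0.56 for AIF1, 0.29 for IL10, 0.42 for SLC11A1 and 0.14 for NEK6. These correlations describe arrays that share animals, processing periods and tissue makeup, and no p is given.

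Both genes moved with marker genes of several cell types, listed here by the correlation of their mean signal over the 63 arrays. For SULT1E1 r was 0.89 with differentiated and 0.77 with basal keratinocyte genes, 0.69 with fibroblast genes and -0.83 with neutrophil and macrophage genes. For CYP2C91 r was 0.90 with neutrophil and macrophage genes, -0.65 with differentiated and -0.67 with basal keratinocyte genes and -0.62 with fibroblast genes. Skeletal muscle genes had r of 0.03 and -0.18, and over the 36 unexposed arrays -0.52 with SULT1E1 and 0.20 with CYP2C91. Fat cell genes had 0.07 and -0.42 over the 63 arrays, and -0.10 and -0.45 over the 36. Sweat gland genes had -0.42 and 0.355 over the 63 arrays, and 0.335 and -0.13, of the opposite sign, over the 36. Over the 63 arrays hair follicle and sebaceous gland genes had -0.19 and 0.27, and endothelial genes -0.165 and 0.06. Over the 36 arrays CYP2C91 had r of -0.41 with differentiated and -0.385 with basal keratinocyte genes and -0.23 with fibroblast genes. In these arrays SULT1E1 had r of 0.59 with basal keratinocyte, 0.50 with fibroblast and -0.36 with neutrophil and macrophage genes. Of the 7 differentiated keratinocyte genes, 6 fell at 24 to 72 h with a median difference of -2.25, and their mean signal was 9.57 to 10.66 in exposed against 11.55 to 12.43 in control arrays. Over the 63 arrays this mean correlated with SULT1E1 at r = 0.89, and over the 36 unexposed arrays at 0.75. CALML5 and SERPINB7 stand in that list. At 336 h the keratinocyte mean was 11.73 to 12.16 in lesions and 12.07 to 12.48 in control skin, while SULT1E1 was lower by 1.95. At 514 h the lesions stood above control skin in the keratinocyte mean, at 12.77 to 13.03 against 12.17 to 12.25, while SULT1E1 overlapped. The part of cell type content in the SULT1E1 values was not tested.

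Of the 14 genes of neutrophils and macrophages, 12 rose at 24 to 72 h and 12 at 168 to 514 h, with median differences of 1.31 and 0.78. Their mean signal was 9.21 to 10.38 in exposed and 7.80 to 9.05 in control arrays at 24 to 72 h. It correlated with CYP2C91 at r = 0.90 over 63 and 0.73 over 36 arrays, and AIF1 and SLC11A1 stand in the list. In control skin at 72 h, where CYP2C91 was highest, this mean was 8.48 to 9.05, against 8.06 to 8.08 at 168 h, where CYP2C91 was lowest. A list of 9 liver genes, a tissue known for CYP2C enzymes, with CYP3A29 among them, had mean signals of 7.19 to 7.73 in exposed and 7.11 to 7.79 in control arrays at 24 to 72 h. The part of cell type content in the CYP2C91 values was not tested.

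**Figure D4:**
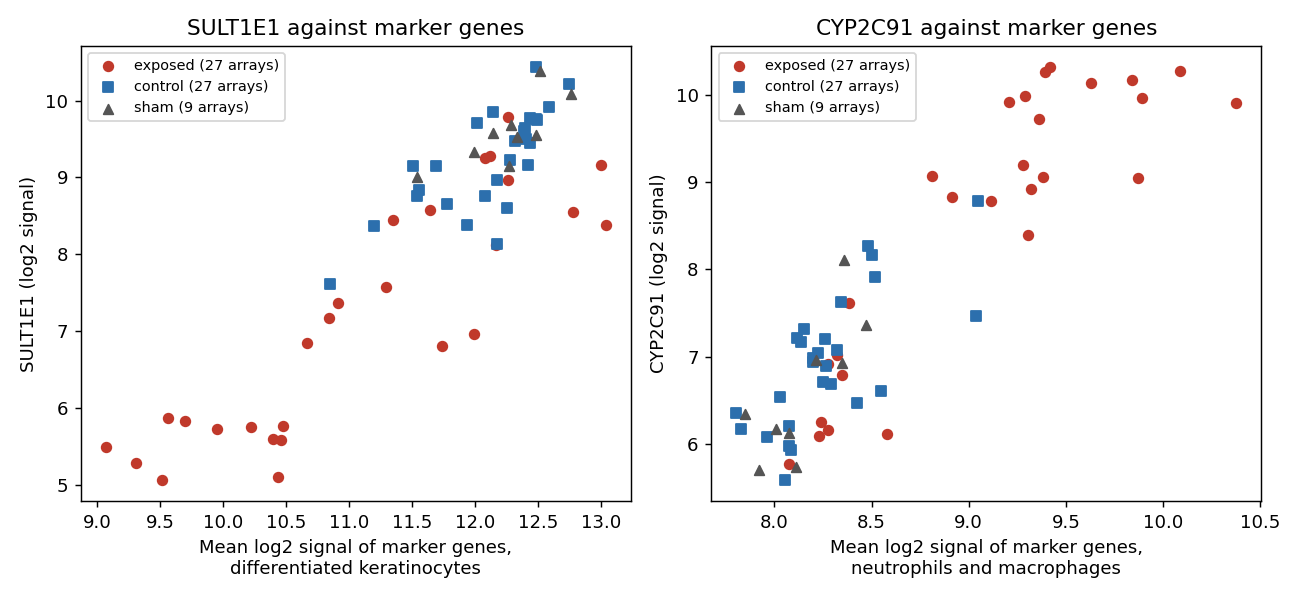
Each point is 1 of 63 arrays, with the mean log2 signal of 7 differentiated keratinocyte genes against SULT1E1 on the left and of 14 neutrophil and macrophage genes against CYP2C91 on the right. Exposed arrays (circles) reach 9.07 on the keratinocyte axis and 10.38 on the leukocyte axis, and 2 exposed circles of 336 h, at 11.73 and 11.99 on the keratinocyte axis, lie at 6.81 and 6.97, below every control square.

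Other genes of steroid and drug metabolism were followed in 6 lists with 97 measured of 196 listed genes, leaving out SULT1E1 and CYP2C91. At 1 to 4 h none rose and 2 fell, at 24 to 72 h 21 rose and 7 fell, and at 168 to 514 h 22 rose and 13 fell. As shares these are 0 and 2.06%, 21.6 and 7.22%, and 22.7 and 13.4%, beside 2.07 and 3.41%, 18.2 and 16.9%, and 12 and 9.88% of all probe sets tested. Their median differences in the 3 windows were 0.04, 0.04 and 0.03, beside -0.005, -0.003 and 0 for all probe sets. With the muscle score as a covariate 20 rose and 9 fell at 168 to 514 h. The 18 fits that each left out 1 array gave 20 to 23 rises and 9 to 12 falls in that window. Changes below are log2 differences in limma, with the standard error and the p adjusted over all probe sets.

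Of 9 measured genes of sulfation, 5 rose at 24 to 72 h and 4 at 168 to 514 h, and none fell in any window. The shares that rose were 55.6% and 44.4%, beside 18.2% and 12% of all probe sets. PAPSS2, which makes PAPS, rose by 1.16 ± 0.22 (adjusted p = 4.27e-05) and 1.51 ± 0.22 (adjusted p = 1.4e-06). PAPSS1 rose by 0.50 and 0.28 and SLC35B2, which carries PAPS into the Golgi, by 0.31 and 0.28. The other PAPS carrier, SLC35B3, did not pass, with differences of -0.03 and -0.11. ARSA, a lysosomal sulfatase, rose by 0.35 and 0.76 ± 0.10 (adjusted p = 4.5e-07). The list median was 0.31 at 24 to 72 h and 0.28 at 168 to 514 h.

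As for most probe sets tested, most measured enzymes that form and convert steroids did not pass the threshold. Of 18 measured, 3 rose and 1 fell at 24 to 72 h, and 3 rose at 168 to 514 h. The shares that rose were 16.7% in both windows, beside 18.2% and 12% of all probe sets. The shares that fell were 5.56% and 0%, beside 16.9% and 9.88%. Several were dim, with means of 5.66 for CYP11A1, 6.06 for SRD5A2 and 6.15 for AKR1C1. HSD17B7, which reduces estrone and also acts in cholesterol synthesis, rose by 0.81 ± 0.14 at 24 to 72 h (adjusted p = 8.33e-06). HSD17B12 rose by 0.31 and HSD17B8, which oxidises estradiol, fell by 0.20 in that window, calls lost in 9 and 6 of 18 fits that each left out 1 array. Without the 24 h arrays HSD17B8 differed by -0.002. HSD3B1, which acts in the synthesis of progesterone and androgens, rose by 0.68 ± 0.14 at 168 to 514 h (adjusted p = 0.000362), and the reductase DHRS11 by 0.41 ± 0.09 (adjusted p = 0.000624). Against sham in place of control arrays neither passed in that window, with 0.47 for HSD3B1 (adjusted p = 0.137) and 0.14 for DHRS11 (adjusted p = 0.571), and HSD17B12 and HSD17B8 did not pass at 24 to 72 h (adjusted p = 0.0588 and 0.599).

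Among 18 measured receptors and their partners, the estrogen receptors ESR1 and ESR2 did not pass in any window, with differences of -0.10 and -0.04 at 24 to 72 h. At 24 to 72 h 2 genes of this list rose and 1 fell, and at 168 to 514 h 2 rose and 4 fell. The shares that rose were 11.1% in both windows, beside 18.2% and 12% of all probe sets. The shares that fell were 5.56% and 22.2%, beside 16.9% and 9.88%. NR1H3, the oxysterol receptor LXR alpha, rose by 0.79 ± 0.09 (adjusted p = 9.84e-09) and 0.66 ± 0.09 (adjusted p = 1.13e-06). FKBP4, a chaperone of steroid receptors, rose by 0.59 ± 0.10 at 24 to 72 h (adjusted p = 8.35e-06), or by 0.26 without the 24 h arrays (adjusted p = 0.14). Its rise of 0.29 at 168 to 514 h was lost in 7 of 18 fits without 1 array, and the difference was -0.02 against sham arrays (adjusted p = 0.954). NR3C1, the glucocorticoid receptor, fell by 0.40 ± 0.11 and 0.62 ± 0.11 (adjusted p = 0.00238 and 2.35e-05). Without the 24 h arrays its difference at 24 to 72 h was -0.33 and did not pass (adjusted p = 0.0643). PPARG fell by 0.42 ± 0.14 at 168 to 514 h (adjusted p = 0.0262), where 8 of 11 fat cell genes, itself among them, fell. That call was lost without the first exposed or first control array at 168 h, or without the first control array at 336 or 514 h (highest adjusted p = 0.0984), and against sham arrays, with a difference of -0.20 (adjusted p = 0.611).

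**Figure D5:**
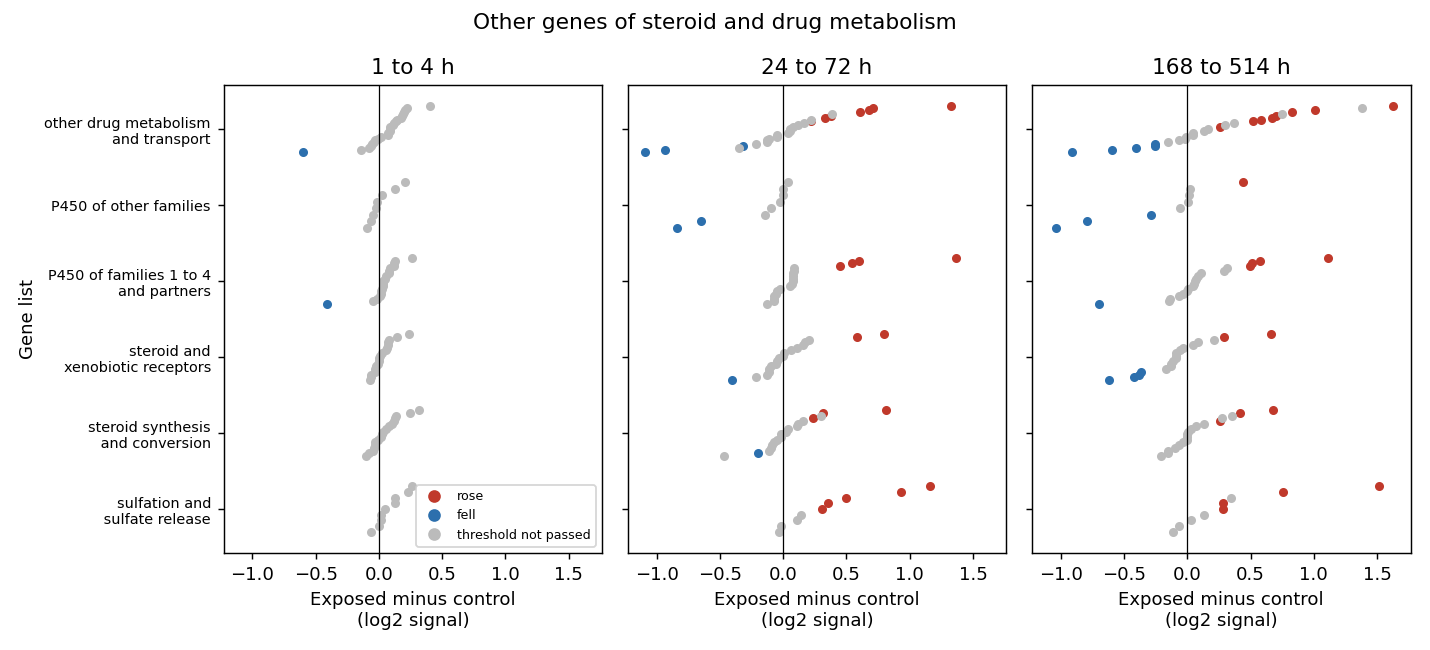
Each point is 1 gene of 6 lists, placed at its difference between exposed and control skin (log2 signal) in the 3 windows; red points rose and blue points fell past an adjusted p of 0.05, and grey points did not pass. At 1 to 4 h 2 of 97 genes are coloured, and in the sulfation row no point is blue in any window.

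Of 19 measured P450 enzymes of families 1 to 4 and their partners, 1 fell at 1 to 4 h, 4 rose at 24 to 72 h, and 4 rose and 1 fell at 168 to 514 h. The shares that rose were 21.1% in both later windows, beside 18.2% and 12% of all probe sets. The shares that fell were 5.26%, 0% and 5.26%, beside 3.41%, 16.9% and 9.88%. The early fall was that of CYP2D25, a 25-hydroxylase of vitamin D in pigs, by 0.41 ± 0.06 (adjusted p = 7.11e-06). CYP3A29, a CYP3A enzyme of pigs, rose by 1.36 ± 0.40 at 24 to 72 h (adjusted p = 0.00568) and by 1.11 ± 0.40 at 168 to 514 h (adjusted p = 0.0387). The later call was lost in 9 of 18 fits that left out 1 array, with differences from 0.78 to 1.39, and the earlier one without the 24 h or the 72 h arrays. POR, the electron donor of these enzymes, rose by 0.60 ± 0.08 and 0.51 ± 0.08 (adjusted p = 1.49e-07 and 7.2e-06). CYB5A, the donor cytochrome b5, rose by 0.58 ± 0.12 at 168 to 514 h, or 0.39 without the 168 h arrays (adjusted p = 0.0749). CYP2A19 fell by 0.70 ± 0.15 in that window (adjusted p = 0.000574). Against sham in place of control arrays the differences at 168 to 514 h were -0.40 for CYP2A19 (adjusted p = 0.26) and 0.26 for CYB5A (adjusted p = 0.378), and neither passed.

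Of 8 measured P450 enzymes of other families, 2 fell at 24 to 72 h, and 1 rose and 3 fell at 168 to 514 h. The shares that rose were 0% and 12.5%, beside 18.2% and 12% of all probe sets. The shares that fell were 25% and 37.5%, beside 16.9% and 9.88%. CYP7A1, the bile acid synthesis enzyme, fell by 0.84 ± 0.18 and 1.04 ± 0.18 (adjusted p = 0.000262 and 2.81e-05). CYP27A1, the sterol 27-hydroxylase, fell by 0.65 ± 0.11 and 0.79 ± 0.11 (adjusted p = 4.54e-06 and 3.23e-07). CYP51, the lanosterol demethylase, rose by 0.44 ± 0.09 at 168 to 514 h, or 0.24 without the 514 h arrays (adjusted p = 0.12) and 0.07 against sham arrays (adjusted p = 0.808).

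The list of other enzymes and transporters, with 25 measured, had 1 fall at 1 to 4 h, 7 rises and 3 falls at 24 to 72 h, and 8 rises and 5 falls at 168 to 514 h. The shares that rose were 28% and 32% in the later windows, beside 18.2% and 12% of all probe sets. The shares that fell were 4%, 12% and 20%, beside 3.41%, 16.9% and 9.88%. NQO1, a quinone reductase under control of NFE2L2, rose by 1.32 ± 0.19 and 1.63 ± 0.19 (adjusted p = 2.99e-07 and 1.54e-08), or 2.51- and 3.09-fold. GSTO1, a glutathione transferase, rose by 0.71 ± 0.09 at 24 to 72 h. ALDH1A1, which makes retinoic acid, rose by 1.01 ± 0.20 at 168 to 514 h (adjusted p = 0.000181), or 0.65 without the 168 h arrays (adjusted p = 0.0797) and 0.69 against sham arrays (adjusted p = 0.117). SLCO3A1, an organic anion carrier, fell in every window, by 0.60 ± 0.10, 1.09 ± 0.10 and 0.92 ± 0.10 (adjusted p = 3.87e-05, 9.54e-12 and 2.45e-09). FMO1, a flavin monooxygenase, fell by 0.93 ± 0.22 at 24 to 72 h (adjusted p = 0.000768), but by 0.40 without the 24 h arrays (adjusted p = 0.332). Its fall of 0.59 at 168 to 514 h was lost in 14 of 18 fits without 1 array, and the difference was -0.14 against sham arrays (adjusted p = 0.839).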

How the data were processed

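RNA of 63 skin biopsies was hybridised to Affymetrix Porcine Genome arrays. The authors deposited log2 signals, 1 for each probe set and array. RMA and Partek are named, without versions, per the submitters' processing notes. The log base was read from the range of values, 4.05 to 14.54. RMA compresses dim differences, and the number of arrays limits precision. The 124 control probe sets were left out and 23999 tested. Gene symbols were taken from the array annotation supplied and updated by gene ID (9989 of 10099 matched in RefSeq, Sscrofa11.1); 198 probe sets with several symbols and 13826 without one were not named. A gene with several probe sets was represented by the one with the highest mean.

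A linear model was fitted to the 63 arrays with limma 3.58.1 in R 4.3.3, which had a mean for each group (27 groups, 36 residual and 3.24 prior degrees of freedom), with Benjamini-Hochberg adjustment and a threshold of 0.05, two-sided. A sham group of 1 array is taken to vary like the others. Sham and control were also compared by exact permutation within times (262144 rearrangements). Scripts were tested on simulated data.

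SULT1E1, CYP2C91, the lists, the tests and the rules for naming genes were chosen with earlier results of these data known. Lists were written from general knowledge of the pathways. Named were the 5 genes most like each of the pair by Pearson's r, for each list and window up to 2 rises and 2 falls past the threshold, and all other CYP2C and sulfotransferase genes; PAPSS1, SLC35B2, SLC35B3, ESR1 and ESR2 were added after their values were seen. Alternatives covered normalization, muscle score, processing day, pairing, control group, probe set, a filter, single arrays and single times.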

Additional observations from a re-analysis of the deposited data

Results flagged for a closer look

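CYP2C91 was lower in the exposed than in the control array of the same number in all 3 pairs at 1 h (mean difference -0.39, SE 0.31, log2). The groups overlapped at 1 h. It was higher in all 3 pairs at each time from 24 to 514 h, and this difference between times was not tested. The number is not stated to mark the animal. With the group means removed, same-numbered arrays had an r of 0.064 for CYP2C91 over 27 pairs.

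For the other genes, the difference between exposed and control skin itself changed between windows in limma (adjusted p below 0.05). From 1 to 4 h to 24 to 72 h it rose by 1.13 for NQO1, 0.90 for PAPSS2, 0.72 for NR1H3, 0.70 for SULT1A3, 0.57 for HSD17B7, 0.52 for POR, 0.51 for FKBP4, 0.49 for GSTO1 and 0.34 for CYP2D25. It changed by -0.93 for FMO1, -0.74 for CYP7A1, -0.67 for CYP27A1 and -0.50 for SLCO3A1. From 24 to 72 h to 168 to 514 h it rose by 0.69 for HSD3B1 and 0.44 for CYP51 and changed by -0.77 for CYP2A19 and -0.62 for PPARG. These genes were named for their size in 1 of the windows compared.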

How the results depend on the processing

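SULT1E1 and CYP2C91 have 1 probe set each, so no other could be tried. Leaving out 1 array at a time kept the direction of SULT1E1 (-0.91 to -0.51, -3.58 to -3.36 and -2.27 to -2.05 in the 3 windows) and of CYP2C91 (-0.36 to -0.16, 2.62 to 2.80 and 2.30 to 2.45). Against sham in place of control arrays they differed at 24 to 72 h by -4.05 and 3.49, and CYP2C91 at 1 h by 0.27; 13 list genes then rose and 4 fell at 168 to 514 h, FKBP4 differing by -0.02 (adjusted p = 0.954). With a minimum of 2-fold, 0 list genes fell at 1 to 4 h, 3 rose and 1 fell at 24 to 72 h, and 4 rose and 1 fell at 168 to 514 h. Without the 24 h arrays 3 fell at 24 to 72 h, and without the 168 h arrays 11 rose at 168 to 514 h; leaving out a time was added after seeing the data. The cause of these shifts was not tested, except that fewer arrays enter when a time or control group is dropped. Same-numbered exposed and control arrays correlated in their deviations in 21 of 27 pairs (r over 0.1, mean r 0.27) and in all 3 pairs at 5 of 9 times. In 20 of the 27 pairs the same number gave the best match. Whether the number marks the animal is not stated, and the main fit did not use the number as pairing. With it as a replicate block, 1 list gene rose at 1 to 4 h, 25 rose and 9 fell at 24 to 72 h, and 29 rose and 15 fell at 168 to 514 h, and the differences of SULT1E1 and CYP2C91 were the same; for control windows it was not run. Arrays have no read depth; low SULT1E1 signals in lesions lie near the lower end of the scale, where RMA compresses differences.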
